A study of Mus musculus with 18 samples.

Results

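The genes described here are 29 genes of sterol and fatty acid synthesis: enzymes, regulators and a sterol carrier of the SREBP pathway. They were chosen by symbol and not by a rule on values measured in these samples, though earlier results of these data were known. All 29 are among the 17198 genes of the deposited table. RNA was sequenced from cultures of dorsal root ganglion (DRG) neurons of the mouse, the sensory neurons whose cell bodies lie beside the spinal cord. Wild type (WT) cultures were compared with cultures heterozygous for the tm1a allele of Dynlrb1, called HET here. The Dynlrb1 product belongs to cytoplasmic dynein, which moves signals and organelles from axons back to the nucleus, and tm1a alleles are of the knockout-first type, a cassette inserted in the gene and carried by every cell of the animal. Each genotype was sampled at 12, 24 and 48 h in culture with 3 replicates, 18 samples in all. The labels give no treatment, sex or age, and whether the replicates of a group came from separate animals is not given beyond the word biological in the design, so the p-values measure the spread between these cultures.

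Cells make cholesterol from acetyl-CoA through mevalonate, squalene and lanosterol, and fatty acids from the same acetyl-CoA. The transcription factors SREBP1 and SREBP2, encoded by Srebf1 and Srebf2, raise the genes of both routes when sterols in the membrane of the endoplasmic reticulum are low, while Insig1 holds the SREBPs there when sterols are plentiful. Growing axons add membrane, and neurons in culture can make cholesterol themselves or take it up from lipoproteins made by glia. The comparisons ask how these genes change as the neurons grow and whether loss of 1 copy of Dynlrb1 alters them.

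Dynlrb1 itself was at 58.2%, 55.0% and 55.7% of WT in HET at 12, 24 and 48 h, with no overlap between the genotypes. Sensory neuron markers were found in every culture, at unlike levels. Tubb3, a neuronal tubulin, lay between 789 and 1533 FPKM (fragments per kilobase of transcript, scaled for depth, as deposited). At the low end of the list, Rbfox3 lay between 27.0 and 49.2 FPKM and Isl1 between 22.2 and 93.9. The glia marker Pmp22 lay between 260 and 383. The summed normalized counts of 12 Schwann cell and satellite glia markers ran from 43394 to 53768 in WT at 12 h and from 37257 to 39166 in WT at 48 h, and from 37642 to 44271 in HET at 48 h. In HET replicate 3 at 48 h the root mean square log2 distance over all genes was 0.58 to the mean of its partners and 0.42 to the HET mean at 24 h, the only 48 h culture nearer to 24 h. Its 4 neutrophil markers summed to 1617 against 109 and 150 in its partners, and its 4 cycling cell markers to 364 against 2331 and 1534. No marker was at 0 in any culture. The myelin gene Mag lay between 1.26 and 38.4 normalized counts. In RNA from whole cultures, fewer cells of a type and less RNA per cell cannot be told apart.

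Promoter sequences were searched for motifs through which the pathway is known to be read. SREBPs bind sterol regulatory elements, here TCACNCCAC, and act with NF-Y, which binds the CCAAT box. RefSeq promoters (GRCm38.p6; 250 bases before and 50 after each start) were found for 23 of the 29 genes. The following 5 cover the 180 bases before the start, 5′ to 3′ on the gene's strand, with motif letters on either strand in capitals. They are shown because their windows lie outside every annotated exon and because the first 4 genes fell with time in WT cultures, whereas Ebp did not. They lie at chr13:119690171-119690350 (plus strand), chr5:114444089-114444268 (plus), chr3:89454361-89454540 (plus), chr11:120824548-120824727 (minus) and chrX:8193513-8193692 (minus).
Hmgcs1: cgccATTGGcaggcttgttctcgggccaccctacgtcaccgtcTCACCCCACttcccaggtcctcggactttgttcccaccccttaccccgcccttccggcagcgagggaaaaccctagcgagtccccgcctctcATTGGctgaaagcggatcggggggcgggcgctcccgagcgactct
Mvk: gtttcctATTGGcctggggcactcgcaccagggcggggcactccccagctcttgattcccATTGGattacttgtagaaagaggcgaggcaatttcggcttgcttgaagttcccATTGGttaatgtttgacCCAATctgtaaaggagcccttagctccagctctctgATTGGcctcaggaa
Pmvk: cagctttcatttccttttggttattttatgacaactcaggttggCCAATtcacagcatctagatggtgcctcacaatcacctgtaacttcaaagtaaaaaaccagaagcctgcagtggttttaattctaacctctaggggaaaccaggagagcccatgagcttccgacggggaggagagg
Fasn: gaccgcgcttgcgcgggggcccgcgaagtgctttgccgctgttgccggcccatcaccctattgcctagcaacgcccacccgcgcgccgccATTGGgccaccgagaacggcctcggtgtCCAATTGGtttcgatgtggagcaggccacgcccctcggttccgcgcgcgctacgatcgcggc
Ebp: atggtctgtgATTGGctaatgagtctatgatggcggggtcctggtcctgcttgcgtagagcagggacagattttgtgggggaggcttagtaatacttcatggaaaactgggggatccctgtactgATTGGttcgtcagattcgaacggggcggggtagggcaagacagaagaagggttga

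In the Hmgcs1 window, TCACCCCAC starts 137 bases before the start, and ATTGG, the CCAAT box read from the other strand, lies 176 and 45 bases before it. In the letters shown Mvk has 5 CCAAT boxes and Pmvk 1. Fasn has 3, of which 2 overlap and read CCAATTGG, and Ebp has 2. A CCAAT box stood in the promoters of 20 of the 23 genes with a sequence (87.0%), against 41.1% of the 27025 genes of the table. TCACNCCAC was found in 1 of the 23, Hmgcs1, against 1.44% of all genes, and its core CACNCCAC, which lies within it, in 3 (Acat2, Hmgcs1 and Insig1) against 7.12%. The E-box CACGTG, which SREBP1 can also bind, stood in 4 of 23 (Hsd17b7, Sc5d, Dhcr7 and Insig1) against 8.09%. Of 48 other pathway genes with a promoter, from the further lists described below, 27 had a CCAAT box (56.25%). In these 48, TCACNCCAC stood in 4.17%, its core in 16.7% and the E-box in 16.7%. The shares in the 23 were similar, at 4.35%, 13.0% and 17.4%. The CCAAT box did not divide the genes by their course in WT: it was in 11 of 13 that fell from 12 to 48 h and in 9 of the other 10. These are matches of letters, not measured binding.

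Levels per length differed widely among the genes. In WT cultures at 12 h the highest mean FPKM was that of Acly, which makes cytosolic acetyl-CoA from citrate, at 204. Hmgcs1, the HMG-CoA synthase, followed at 177, then the stearoyl-CoA desaturases Scd2 at 143 and Scd1 at 127, and squalene epoxidase, Sqle, at 124. At the low end were Dhcr7, the reductase that makes cholesterol, at 6.55, the sterol carrier Stard4 at 6.16 and the isopentenyl diphosphate isomerase Idi1 at 3.43. Acly stayed first in all 6 groups, whereas Scd1 went from rank 4 in WT at 12 h to rank 6 at 48 h and was at rank 4 in HET at 48 h. The summed FPKM of the 29 genes was 1417 to 1553 in the WT cultures at 12 h, 1168 to 1272 at 24 h and 924 to 1153 at 48 h. In HET it was 1566 to 1917 at 12 h, 1089 to 1371 at 24 h and 1195 to 1543 at 48 h. The ranges of the genotypes did not overlap at 12 h or at 48 h and overlapped at 24 h. For the enzymes of sterol synthesis alone the sums overlapped at 12 h, with WT replicate 2 at 884 and HET replicate 1 at 878. At 48 h these sums were up to 603 in WT and from 607 in HET. In the GRCm38 annotation 15 of the 29 genes overlap another gene, 6 of them a coding gene on the other strand, and whether the counting used strand is not given in the sources used here. Some overlaps lie on the same strand, such as that of Tm7sf2 with Vps51, and counting by strand would not separate these.

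The genes moved together from culture to culture within a group. WT replicate 2 at 48 h was the lowest of its group in 26 of 29 genes and the lowest of all 18 cultures in 17. HET replicate 2 at 12 h was the highest of its group in 23 genes and the highest of all 18 in 19. At 24 h, HET replicate 1 was the lowest of its group in 23 genes and HET replicate 2 the highest in 23. At 48 h the culture numbered 2 was the lowest in both genotypes, in 21 of 29 genes in HET. The genes therefore do not give 29 independent readings of a group. These counts were made for the 29 genes only, so whether other genes ordered the cultures alike is not known.

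**Figure D1:**
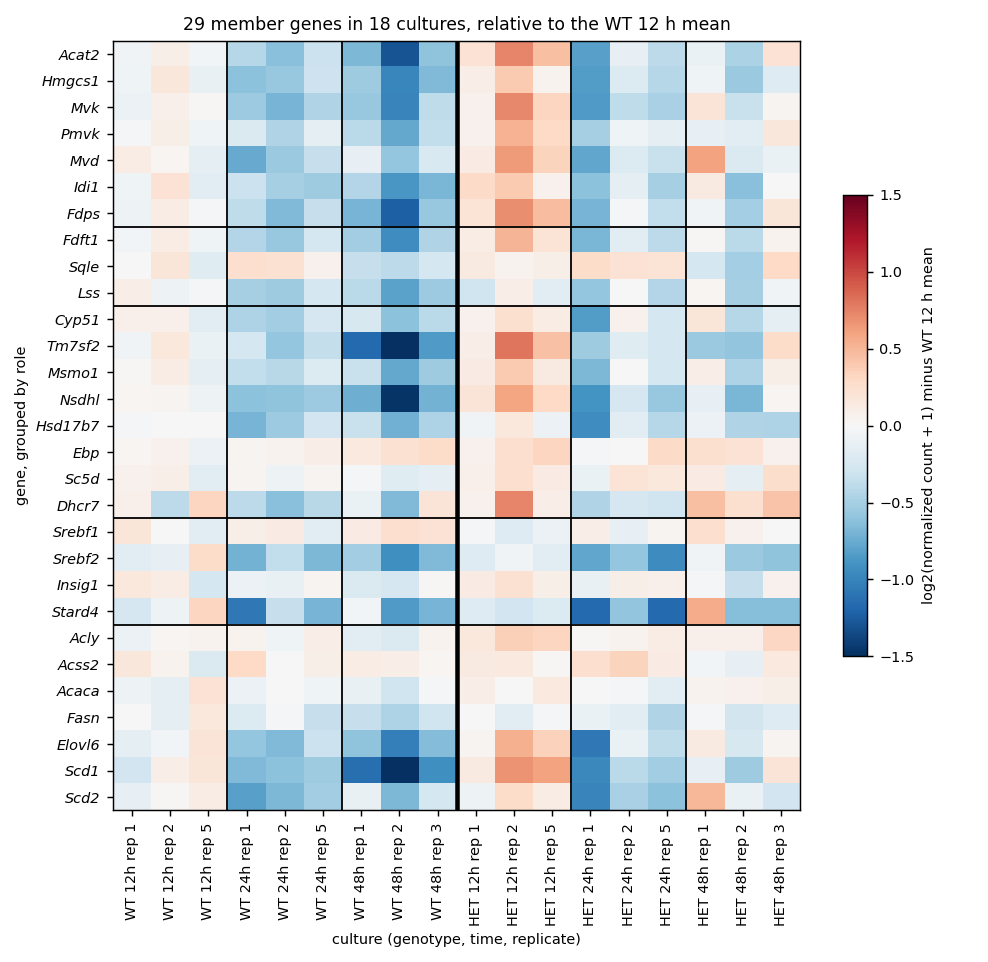
Levels of the 29 genes (rows, by role) in the 18 cultures (columns, by genotype and time), as log2(normalized count + 1) minus the mean of the WT cultures at 12 h; red is higher and blue lower. WT replicate 2 at 48 h is the bluest column of its group, and HET replicate 2 at 12 h the reddest of all.

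In WT cultures, 12 of the 18 enzymes of sterol synthesis and 3 genes of fatty acid synthesis fell between 12 and 48 h. The largest changes were in the desaturase Scd1, at 41.5% of its 12 h level in the fit, the sterol reductase Tm7sf2 at 44.0% and the sterol dehydrogenase Nsdhl at 51.2%. Hmgcs1, at the start of the sterol route, was at 60.6% and Srebf2, the regulator, at 61.7%. By limma with adjustment over all genes, 16 of the 29 genes fell and 0 rose, where 17.1% of all 17198 genes fell and 30% rose. The median log2 change of the 29 was -0.52, against 0.11 over all genes. The 16 were 6 of 7 genes of the mevalonate steps, 2 of 3 from squalene to lanosterol, 4 of 8 from lanosterol to cholesterol, 1 of 4 of control and transport, and 3 of 7 of fatty acid synthesis. Mvd, Sqle, Cyp51, Ebp, Sc5d, Dhcr7, Srebf1, Insig1, Stard4, Acly, Acss2, Acaca and Scd2 did not pass. In 18 genes every WT culture at 48 h lay below every WT culture at 12 h, as in 20.7% of all genes. Without WT replicate 2 at 48 h, 9 genes fell. On the other deposited scaling the median over all genes was 0.01 in place of 0.11 and that of the 29 was -0.62, and 18 fell. Neither of these 2 counts has the share of all genes beside it. Of the cell type markers, 2 of 8 for sensory neurons rose and 4 fell, 1 of 12 for glia rose and 5 fell, 4 of 6 for fibroblasts, 2 of 6 for macrophages and 4 of 4 for cycling cells rose, and 3 of 4 for endothelium and 4 of 4 for neutrophils fell. Their part in the result was not tested.

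Among the regulators, Srebf2, which encodes the SREBP that acts mainly on sterol genes, fell, and Srebf1 did not. Srebf2 normalized counts in WT were 5164, 5295 and 6941 at 12 h, 3502, 4465 and 3595 at 24 h and 4011, 3047 and 3643 at 48 h. Every culture at 24 and 48 h was below every culture at 12 h. The log2 fold change from 12 to 48 h was -0.70 (SE 0.15) with a limma adjusted p of 0.00166. For Srebf1, the WT values were 2391, 2095 and 1869 at 12 h, 2249, 2298 and 1891 at 24 h and 2304, 2516 and 2459 at 48 h. The ranges overlapped and the log2 change was 0.20 (SE 0.11), limma adjusted p = 0.132. Insig1, itself a target of SREBP2, read 4944, 4814 and 3689 at 12 h, 4188, 4102 and 4557 at 24 h and 3829, 3725 and 4497 at 48 h. Its log2 change of -0.15 (SE 0.12) did not pass either (limma adjusted p = 0.323). Stard4, a carrier that moves cholesterol between membranes, averaged 763 ± 162 at 12 h and 537 ± 169 at 48 h (SD, n = 3) and did not pass.

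In the mevalonate steps, Hmgcs1, Acat2, Mvk, Pmvk, Idi1 and Fdps fell and Mvd did not pass. Hmgcs1 read 24567, 29075 and 23878 at 12 h, 16768, 17326 and 20744 at 24 h and 17771, 13104 and 16301 at 48 h. The cultures at 24 and 48 h overlapped each other and were all below 12 h. The log2 change from 12 to 48 h was -0.72 (SE 0.16), limma adjusted p = 0.00196. Acat2, the cytosolic thiolase that joins 2 acetyl-CoA, read 2874, 3179 and 2906 at 12 h, 2214, 1933 and 2390.3 at 24 h and 1864, 1217 and 1966 at 48 h. All 48 h values except that of replicate 3 were below all 24 h values, and the log2 change from 12 h was -0.86 (SE 0.20), limma adjusted p = 0.00265. Fdps, the farnesyl diphosphate synthase, read 3289, 3748 and 3411 at 12 h, 2669, 2190.1 and 2742 at 24 h and 2141, 1482 and 2354 at 48 h and fell by 0.83 on the log2 scale. Mevalonate kinase, Mvk, read 1280.1, 1432 and 1376 at 12 h, 935, 842 and 993 at 24 h and 920.2, 685 and 1044 at 48 h with its 24 and 48 h values overlapping, and its log2 change was -0.65.

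From squalene to lanosterol, Fdft1 (squalene synthase) and Lss (lanosterol synthase) fell by 48 h, and Sqle followed another course. Sqle read 14039, 15994 and 12459 at 12 h, 16799, 16566 and 14763 at 24 h and 11063, 10704 and 11730.4 at 48 h. Its 48 h values were below every 12 and 24 h value, and its 24 h values overlapped those at 12 h. From 24 to 48 h Sqle fell, with a log2 change of -0.52 (SE 0.14) and a limma adjusted p of 0.0149, whereas its 12 to 48 h change of -0.34 (SE 0.14) did not pass (limma adjusted p = 0.0645). Lss read 1295, 1142 and 1194 at 12 h, 858, 835 and 1004 at 24 h and 909.6, 690.2 and 828 at 48 h, all 24 and 48 h values below 12 h, and its log2 change from 12 to 48 h was -0.59.

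From lanosterol to cholesterol, Tm7sf2, Nsdhl, Msmo1 and Hsd17b7 fell from 12 to 48 h, and Cyp51, Ebp, Sc5d and Dhcr7 did not pass. Tm7sf2, a sterol reductase that acts after Cyp51, read 1453, 1684 and 1405 at 12 h, 1259, 1010.3 and 1179.6 at 24 h and 671, 519 and 838 at 48 h. The 3 times did not overlap. Tm7sf2 fell by 1.18 (SE 0.22) on the log2 scale from 12 to 48 h (limma adjusted p = 4.66e-04) and from 24 to 48 h fell by 0.79 (SE 0.22) (adjusted p = 0.0159). Nsdhl, a sterol dehydrogenase that helps remove methyl groups, read 2044, 2049 and 1898 at 12 h, 1299, 1311 and 1371 at 24 h and 1205, 719.7 and 1225 at 48 h. Its 3 times did not overlap either, and the log2 change from 12 to 48 h was -0.97 (SE 0.20), limma adjusted p = 0.00120. Ebp, the sterol isomerase, went from 1191 ± 67.5 to 1385 ± 66.7 (SD, n = 3), a log2 difference of 0.22 that did not pass, with all 48 h cultures above all 12 h cultures. Sc5d, a sterol desaturase, and Dhcr7 had log2 differences of -0.12 and -0.19.

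In fatty acid synthesis, Scd1, Elovl6 and Fasn fell from 12 to 48 h. Scd1, which puts the first double bond into stearate and palmitate, read 20779.9, 27206 and 28644 at 12 h, 15941, 16460.4 and 17502 at 24 h and 11518, 7569 and 13320.5 at 48 h. The 3 times did not overlap. Scd1 fell by 1.27 (SE 0.22) on the log2 scale from 12 to 48 h (limma adjusted p = 2.49e-04), the largest log2 change of the 29 genes over the comparisons made. From 24 to 48 h it fell by 0.66 (SE 0.22) (limma adjusted p = 0.0319). The Scd1 change turned to 0.39 (limma adjusted p = 0.318) with the replicate block and, as covariates, the 2 directions missing from the other deposited scaling. Its relative Scd2 read 29701, 32704 and 34808 at 12 h, 18345, 20215 and 22541 at 24 h and 29908, 20329 and 26974 at 48 h. The 24 h values were lower than nearly all others, 48 h replicate 2 excepted, and the 12 to 48 h difference of -0.35 (SE 0.18) did not pass. Scd1 (GRCm38 chr19:44394455-44407879, minus strand) and Scd2 (chr19:44293674-44306864, plus strand) are similar in sequence, and how reads shared between them were counted is not given in the sources used here. Fatty acid synthase, Fasn, read 19798, 17887 and 22049 at 12 h, 17231, 19577 and 15559 at 24 h and 15664, 14397 and 16158 at 48 h. It fell by 0.37 (SE 0.11) on the log2 scale (limma adjusted p = 0.0126), the smallest change among the 16. Elovl6, which lengthens palmitate, read 3372, 3636 and 4266 at 12 h, 2499, 2357 and 2985 at 24 h and 2469.5, 1831 and 2387 at 48 h and had a log2 change of -0.76. The genes that supply acetyl-CoA and malonyl-CoA, Acly, Acss2 and Acaca, had 12 to 48 h differences from -0.15 to 0.08 and none passed. Of Acss2, which uses acetate, the WT values were 3307, 3048 and 2545 at 12 h, 3617, 2943 and 3131 at 24 h and 3175, 3154 and 3018 at 48 h, and the 3 times overlapped.

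Between 12 and 24 h in WT most of the genes had lower means, and 1 passed the test. Srebf2 fell between 12 and 24 h, by 0.59 (SE 0.15) on the log2 scale with a limma adjusted p of 0.0466, and 0 rose, where 0.657% of all genes fell and 2.96% rose. In 20 of the 29 genes every 24 h culture lay below every 12 h culture, as in 8.94% of all genes, and the median log2 difference was -0.43 against 0.05 over all genes. The call on Srebf2 was lost when any 1 of the 6 cultures was left out, and 12 genes fell in a fit of these 2 groups alone. What share of all genes that fit called is not given here, so the 12 lack a background. From 24 to 48 h, Sqle, Tm7sf2 and Scd1 fell and 0 rose, where 10.3% of all genes fell and 17.4% rose, and the median difference of the 29 was -0.14 against 0.05. Without WT replicate 1 at 24 h or WT replicate 2 at 48 h, 0 fell, and without WT replicate 2 at 24 h, 1.

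**Figure D2:**
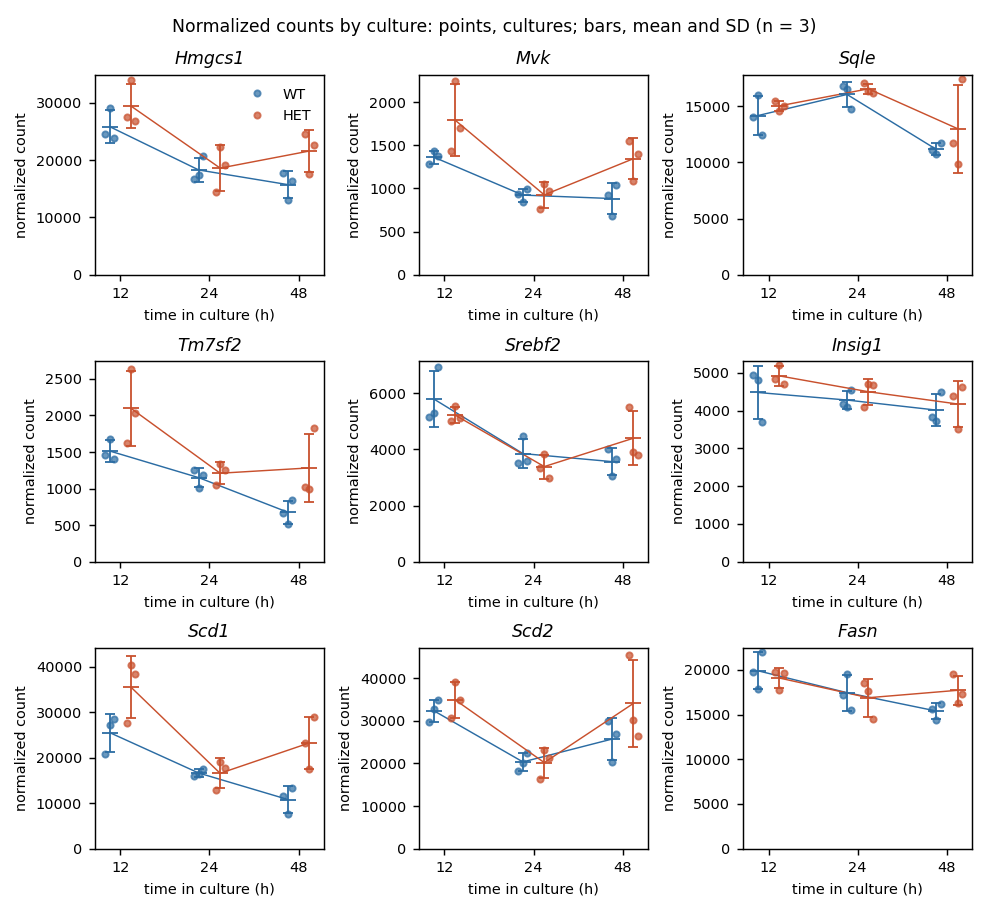
Normalized counts of 9 genes in each culture (points) against time in culture in hours, WT in blue and HET in red; bars are the mean and SD of 3 cultures and lines join the means. The Tm7sf2 and Scd1 means in WT step down at each time, from 25543 to 16634 and 10802 for Scd1, while the HET means of Scd1 go from 35536 to 16576 and back to 23258.

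In HET cultures the mevalonate genes, most of the late sterol genes and both desaturases fell between 12 and 24 h. In the fit Scd1 was at 46.6% of its 12 h level, Mvk at 52.1% and Nsdhl at 52.5%. From 12 to 24 h, 17 of 29 genes fell and 0 rose, where 5.76% of all genes fell and 13.1% rose, and the median log2 change was -0.63 against 0.08 over all genes. All 7 mevalonate genes fell, with Fdft1 of 3 genes from squalene to lanosterol, 5 of 8 from lanosterol to cholesterol (Tm7sf2, Msmo1, Nsdhl, Hsd17b7 and Dhcr7), Srebf2 of 4 of control and transport, and Elovl6, Scd1 and Scd2 of 7 of fatty acid synthesis. In 21 genes every 24 h culture lay below every 12 h culture, as in 13% of all genes. This count also leaned on single cultures: 5 genes fell without HET replicate 2 at 12 h, 8 without HET replicate 1 at 24 h and 11 without HET replicate 5 at 24 h. Shares of all genes in those fits are not given. Of the 44 cell type markers 2 rose and 5 fell over this interval, 3 of the latter from sensory neurons and 2 from glia, and their part was not tested. Whether the 12 to 24 h change differed between the genotypes was not tested. By the authors' deposited table, 17 members fell over this interval (6.02% of all genes) and 5 from 12 to 48 h in HET (4.22%). For WT, the authors' deposited table had 3 lower at 24 h and 16 at 48 h than at 12 h, against 1.66% and 17.2% of all genes.

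Srebf2 in HET read 5011, 5538 and 5124 at 12 h, 3348, 3840.0 and 2983 at 24 h and 5520.3, 3897 and 3786 at 48 h. It fell from 12 to 24 h by 0.63 (SE 0.15) on the log2 scale, limma adjusted p = 0.0106, and replicate 1 at 48 h was back within the 12 h range. Srebf1 read 2071, 1849.8 and 1984 at 12 h, 2267, 1936 and 2160.0 at 24 h and 2519, 2212 and 2091 at 48 h, with all 48 h values above all 12 h values. Insig1 read 4828, 5220.5 and 4719.7 at 12 h, 4103, 4713 and 4692 at 24 h and 4399.7, 3502 and 4632 at 48 h, with all 24 and 48 h values below all 12 h values. Neither passed in any time comparison of HET. Stard4 read 657, 615 and 651 at 12 h, 335, 498 and 336 at 24 h and 1108, 484 and 484 at 48 h, with replicate 1 at 48 h above every other culture, WT included, and no comparison passed.

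Hmgcs1 in HET read 27594, 33885 and 26776 at 12 h, 14400.1, 22279 and 19148 at 24 h and 24636, 17553 and 22557 at 48 h. All 24 and 48 h values were below 12 h, and 48 h overlapped 24 h. Mvk read 1429, 2241 and 1701 at 12 h, 757, 1049 and 971 at 24 h and 1552, 1082 and 1399 at 48 h. It fell by 0.94 (SE 0.18) on the log2 scale from 12 to 24 h, limma adjusted p = 0.00303, and all 48 h values were above all 24 h values. Acat2 read 3453, 4972 and 4088 at 12 h, 1702, 2742 and 2275 at 24 h and 2779, 2148 and 3460.4 at 48 h. Replicate 2 at 12 h was the highest, and Fdps followed the same order of cultures at 12 h, with 4009.7, 5629.7 and 4809. At 24 h Fdps read 2141, 3421 and 2691 and at 48 h 3357, 2440.3 and 3956, below every 12 h culture at both times. Sqle read 15472, 14616 and 14991 at 12 h, 17037, 16378 and 16216 at 24 h and 11748, 9859.6 and 17399 at 48 h, with replicate 3 at 48 h far above its partners and the highest of all 18 cultures. Lss read 982, 1296 and 1085 at 12 h, 808, 1216 and 891 at 24 h and 1232, 854 and 1163 at 48 h, and its 12 and 24 h values overlapped.

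Tm7sf2 in HET read 1620.3, 2634 and 2039 at 12 h, 1042, 1329.9 and 1258 at 24 h and 1027, 998 and 1822 at 48 h. Replicate 3 at 48 h was again apart from its partners, which were below all 24 h cultures. It was the 1 gene that fell in HET from 12 to 48 h, by 0.74 (SE 0.22) on the log2 scale (limma adjusted p = 0.0367). Over that interval 0 members rose, where 3.62% of all genes fell and 10.6% rose, and the median difference of the 29 was -0.27 against 0.10. On the other deposited scaling 6 genes fell, and without HET replicate 3 at 48 h, 7, both without a share of all genes to set beside them. Without either of its partners at 48 h, or without replicate 2 or 5 at 12 h, 0 did. Nsdhl read 2278, 2998 and 2450.3 at 12 h, 1076, 1669 and 1343 at 24 h and 1835, 1238 and 2041 at 48 h. It fell from 12 to 24 h by 0.93 (SE 0.20) on the log2 scale (limma adjusted p = 0.00601), and replicates 1 and 3 at 48 h were above every 24 h culture.

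Scd1 in HET read 27719, 40465 and 38424 at 12 h, 12906, 19146 and 17676 at 24 h and 23274, 17509 and 28992 at 48 h. Every 24 h value was below every 12 h value. The log2 change from 12 to 24 h was -1.10 (SE 0.22), limma adjusted p = 0.00334, the largest of the 29 in that interval. Scd2 read 30732, 39237 and 34889 at 12 h, 16309, 23129 and 21182 at 24 h and 45622, 30243 and 26489 at 48 h. All 48 h values were above all 24 h values. Scd2 was the 1 gene that rose from 24 to 48 h in HET, by 0.73 (SE 0.18) on the log2 scale with a limma adjusted p of 0.0446, and 0 fell, where 1.42% of all genes rose and 1.08% fell. The call was lost without any 1 of 5 of the 6 cultures, the exception being HET replicate 3 at 48 h, and also on the other deposited scaling. In that interval 25 of 29 genes had a positive log2 difference, as had 53.4% of all genes, and the median difference was 0.22 against 0.02. Elovl6 read 3839, 5396 and 4739.5 at 12 h, 1784, 3476 and 2869 at 24 h and 4111, 3166 and 3851 at 48 h. It fell from 12 to 24 h (log2 change -0.82, limma adjusted p = 0.0100). Fasn read 19827, 17809 and 19666 at 12 h, 18548, 17668 and 14464 at 24 h and 19525, 16335 and 17306 at 48 h. Its times overlapped and it did not pass. Acss2 read 3232, 3276 and 2983 at 12 h, 3512, 3702 and 3214 at 24 h and 2874, 2697 and 3251 at 48 h, and the times overlapped.

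**Figure D3:**
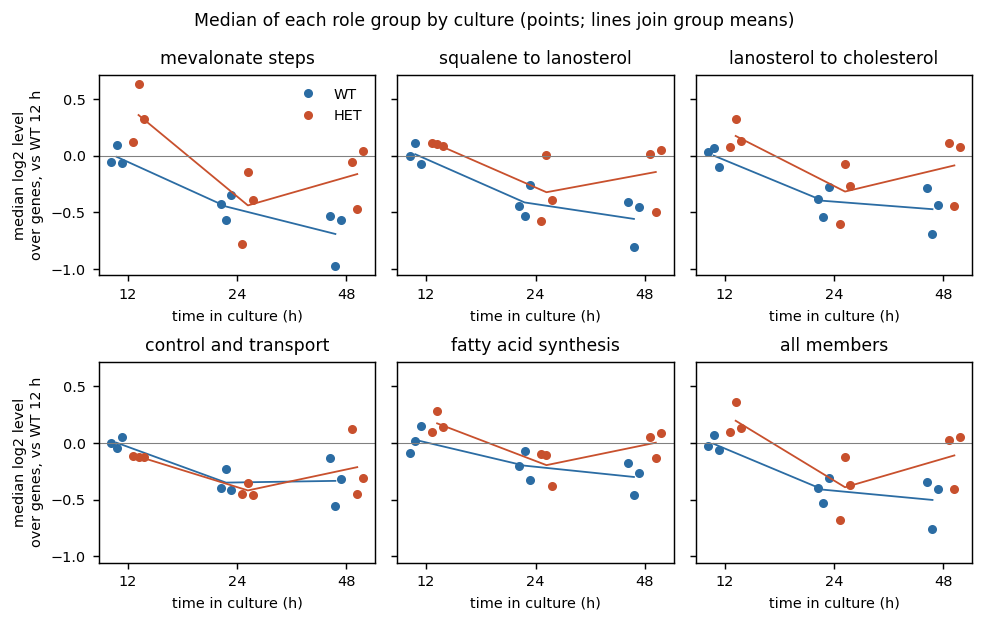
Median over the genes of each role group, as log2 level relative to the WT mean at 12 h (y axis), in each culture (points; WT blue, HET red) against time in hours; lines join the group means. For all 29 genes the WT medians at 48 h are -0.34, -0.76 and -0.40 and the HET medians 0.03, -0.41 and 0.05, so that 1 HET culture lies among the WT cultures.

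At 12 h no gene of the 29 passed between the genotypes, though most means were somewhat higher in HET. By limma 0 passed, 5 had an unadjusted p under 0.05 (8.41% of all genes did), and 1 gene of the whole table passed (0.00581%). The log2 difference was positive in 24 genes, as in 47.2% of all genes, with a median log2 difference of 0.21 against -0.02. In 6 genes every HET culture lay above every WT culture (Acat2, Mvd, Fdps, Msmo1, Nsdhl and Acly), as in 7.07% of all genes. Acly had the lowest p. Its WT values at 12 h were 35260.3, 38248 and 38697 and its HET values 41591, 48021 and 46644, with no overlap, a log2 difference of 0.28 (SE 0.09) and a limma adjusted p of 0.577. Acat2 and Fdps, whose values are above, differed by 0.47 (SE 0.20) and 0.46 (SE 0.20) on the log2 scale, with limma adjusted p of 0.577 and 0.579. Srebf1, Srebf2, Lss, Stard4 and Fasn had lower means in HET, with log2 differences from -0.23 to -0.06.

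At 24 h no difference was detected. By limma 0 of the 29 genes passed (0.00581% of all genes) and 0 had an unadjusted p under 0.05 (1.15% of all genes did). In 0 genes were the genotypes apart, where 2.81% of all genes were higher in HET without overlap and 2.79% lower. The log2 difference was positive in 21 genes (52.9% of all genes). The median log2 difference was 0.02 against 0.01 over all genes. The 3 genes of lowest p were Srebf2 at -0.18 (SE 0.15), Acss2 at 0.11 (SE 0.10) and Stard4 at -0.27 (SE 0.29). Stard4 read 356, 592 and 463 in WT at this time, and the genotypes overlapped in all 3. HET replicates 1 and 2 lay at the low and the high end of the HET cultures in 23 genes each, as given above.

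At 48 h the means of most sterol genes and of Scd1 and Elovl6 were higher in HET, and whether they passed depended on the replicate block. Of the 29 genes, 26 had a positive log2 difference (45.2% of all genes did), with a median log2 difference of 0.41 against -0.03, and in 13 every HET culture lay above every WT culture, as in 9.57% of all genes. Without the replicate number in the model, limma called 0 members and 0 of all genes (0%), and 16 members had an unadjusted p under 0.05 (22% of all genes did). Same-numbered WT and HET cultures deviated together at this time, and with the number as a block 13 genes were higher in HET and 0 lower, where 5.04% of all genes were higher and 7.29% lower. That fit also blocked the 12 and 24 h cultures by number, for which pairing was not shown. By the authors' deposited table, 9 members were higher at 48 h and 0 lower (2.7% of all genes higher). The blocked count was 7 without HET replicate 3 and 3 without WT replicate 2, alternatives chosen after the data had been seen. Unblocked, 10 passed without HET replicate 2, 7 without WT replicate 3 and 2 without HET replicate 1. For the fits with a culture left out, the share of all genes is not given. The summed counts of the 8 sensory neuron markers were 433075 to 457245 in WT and 471322 to 473874 in HET at 48 h, without overlap, and those of the 6 macrophage markers 2158 to 3631 in WT and 1305 to 2009 in HET, also without overlap. Of 44 cell type markers 0 passed without the block. With it 2 were higher in HET (Pmp22 and Ltf) and 7 lower (Isl1, Sox10, Col1a2, Cd68, Top2a, Ccnb1 and Cdk1), and their part in the result was not tested.

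**Figure D4:**
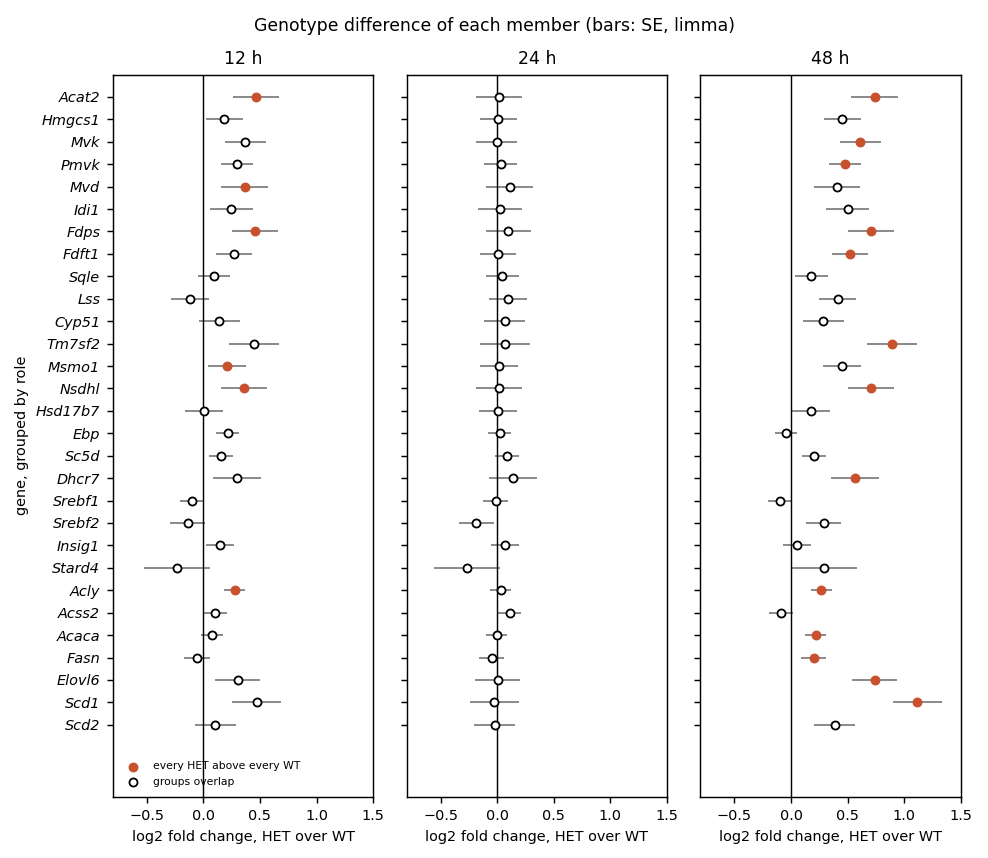
Log2 fold change of each of the 29 genes in HET over WT at 12, 24 and 48 h (x axis; bars are the limma SE without a replicate block); filled red points are genes whose 3 HET cultures all exceed the 3 WT cultures. Such genes number 6 at 12 h, 0 at 24 h, and 13 in the 48 h panel.

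The largest difference at 48 h was in Scd1, at 11518, 7569 and 13320.5 in WT and 23274, 17509 and 28992 in HET. The groups did not overlap. HET exceeded WT by 1.12 (SE 0.22) on the log2 scale (limma adjusted p = 0.0502 unblocked, 3.23e-04 blocked). Tm7sf2 read 671, 519 and 838 in WT and 1027, 998 and 1822 in HET, also without overlap. The log2 difference was 0.89 (SE 0.22) (limma adjusted p = 0.0550 unblocked, 0.00284 blocked). Elovl6 read 2469.5, 1831 and 2387 in WT and 4111, 3166 and 3851 in HET. Again the groups were apart, by 0.74 (SE 0.20) on the log2 scale (limma adjusted p = 0.0635 unblocked, 0.00953 blocked). Scd1 and Tm7sf2 also passed in both blocked fits that left out a culture, and Elovl6 in neither.

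By role, the block called 6 of 7 mevalonate genes, 1 of 3 from squalene to lanosterol, 3 of 8 from lanosterol to cholesterol, 0 of 4 of control and transport and 3 of 7 of fatty acid synthesis. In the mevalonate steps the log2 differences ran from 0.41 in Mvd, which missed the threshold (limma adjusted p with the block 0.0778), to 0.74 in Acat2. Acat2, Mvk, Pmvk and Fdps were apart in every culture, with log2 differences of 0.74, 0.61, 0.48 and 0.71 and blocked limma adjusted p from 0.00620 to 0.0226. Idi1 differed by 0.50 (SE 0.19) with overlap (limma adjusted p = 0.143 unblocked, 0.0418 blocked). Hmgcs1 differed by 0.45 (SE 0.16), and HET replicate 2, at 17553, lay just below the highest WT culture. Fdft1 read 5573, 4167 and 5812 in WT and 8058, 5999.6 and 8275 in HET, a log2 difference of 0.52 with no overlap. Sqle differed by 0.18 (SE 0.14): HET replicates 1 and 3 were above every WT culture, replicate 2 below every one, and the difference did not pass. Nsdhl read 1205, 719.7 and 1225 in WT and 1835, 1238 and 2041 in HET, a log2 difference of 0.71 without overlap, and Msmo1, a sterol methyl oxidase, differed by 0.45. Dhcr7 differed by 0.57 (SE 0.21) without overlap and was not called with the block (limma adjusted p = 0.104). Lss differed by 0.41, Cyp51 by 0.29, Sc5d by 0.20, Hsd17b7 by 0.18 and Ebp by -0.04, and none of these passed in either fit.

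No regulator passed between genotypes. Srebf2 read 4011, 3047 and 3643 in WT and 5520.3, 3897 and 3786 in HET, with overlap, a log2 difference of 0.29 (SE 0.15) (limma adjusted p = 0.281 unblocked, 0.0917 blocked). Srebf1 differed by -0.10 (SE 0.11) and Insig1 by 0.05 (SE 0.12), neither with a limma adjusted p under 0.5 in either fit, and Stard4 by 0.29 (SE 0.29). In fatty acid synthesis Acly read 33133, 32092 and 38802 in WT and 39430.3, 39449 and 46236 in HET, a log2 difference of 0.27 (SE 0.09) with no overlap (limma adjusted p = 0.111 unblocked, 0.0235 blocked). Fasn differed by 0.20 (SE 0.11) without overlap and passed in neither fit. Acaca, the acetyl-CoA carboxylase of the cytosol, differed by 0.22 (SE 0.09), also without overlap and without passing. Scd2 differed by 0.39 (SE 0.18), with WT replicate 1 above HET replicate 3, and missed the threshold (limma adjusted p = 0.0519 blocked). Acss2 had a slightly lower mean in HET, -0.09 on the log2 scale.

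Averaged over the 3 times, limma without the block called 0 of 29 genes (0.0174% of all genes), with 16 at an unadjusted p under 0.05 (13.5% of all genes). The median log2 difference was 0.19 against -0.02, and 26 genes had a positive difference (43.9% of all genes). With the block 8 were higher and 0 lower (1.22% of all genes were higher), although same-numbered cultures were shown to deviate together at 48 h only. The largest were Scd1 at 0.52 (SE 0.12), Tm7sf2 at 0.47 (SE 0.13) and Fdps at 0.42 (SE 0.12), each with a limma adjusted p of 0.310. The test of whether the 12 to 48 h change differed between genotypes called 0 members and 0 of all genes (0%) by limma. Lss alone of the 29 had an unadjusted p under 0.05 there (8.92% of all genes did), with a difference of 0.53 (SE 0.23) on the log2 scale. Scd1 differed by 0.64 (SE 0.31) and Srebf2 by 0.43 (SE 0.22), limma adjusted p = 0.556 and 0.566. The genotype comparisons at single times, the average and this test share cultures and are not separate evidence.

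Genes of the pathway outside the 29 were followed in 4 further lists of 65 genes, all measured. In WT from 12 to 48 h 16 of the 65 rose and 20 fell, where 30% of all genes rose and 17.1% fell. Of 15 further genes of sterol synthesis and uptake 5 rose and 4 fell. Lipa, the lysosomal lipase that frees cholesterol, rose by 0.51 (SE 0.11) on the log2 scale, and Por, which passes electrons to P450 enzymes such as Cyp51, fell by 0.37 (SE 0.13). Of 12 genes that control SREBP processing or the turnover of sterol enzymes 2 rose and 3 fell. Mbtps1, the protease that first cuts SREBPs, rose by 0.37 and Trib1 fell by 1.63 on the log2 scale. Of 12 genes of sterol efflux, storage and removal 2 rose and 5 fell. Soat1, which esterifies cholesterol for storage, rose from 1608 to 3044 normalized counts, and Apoe, the carrier of lipid released by glia, fell from 20956 to 3206. Of 26 further genes of fatty acid metabolism 7 rose and 8 fell, among them Mcat, of mitochondrial fatty acid synthesis, which rose by 1.04, and Acacb, the mitochondrial acetyl-CoA carboxylase, which fell by 1.10. The cell type markers that changed over the same interval are given above, and their part in these changes was not tested.

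In HET from 12 to 24 h 5 of the 65 genes rose and 10 fell, where 13.1% of all genes rose and 5.76% fell. Those that fell included the desaturase Fads2 at -0.75, the elongase Elovl5 at -0.65 and Acsl3, which activates fatty acids with coenzyme A, at -0.65 on the log2 scale. Soat1 rose by 0.77. Between genotypes 0 of the 65 passed at any time by limma without the block. At 48 h 14 had an unadjusted p under 0.05, as had 22% of all genes. With the block 5 were higher in HET (among them Npc1, Paqr3, Fads2 and Hsd17b12) and 2 lower (Soat1 and Mcat), where 5.04% of all genes were higher and 7.29% lower. Fads2 differed by 0.52 (SE 0.21) on the log2 scale (limma adjusted p = 0.159 unblocked, 0.0210 blocked). Soat1 differed in the other direction, by -0.55 (SE 0.15) (limma adjusted p = 0.0615 unblocked, 0.00573 blocked).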

How the data were processed

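RNA-seq of total RNA from 18 cultures was used as 1 deposited table of 17198 genes. Per the submitters' processing notes, reads were processed with CASAVA 1.8.2 and edgeR against mm10; the aligner, the counter, the annotation and filters are not given in the sources used here. Per the file headers, the authors deposited normalized counts (a signal without whole numbers, totals 41509705 to 41509874 per culture), a second set of adjusted values, FPKM, ratios of single cultures to group means, log2 fold changes, p-values and a rank score, which was not used. The second set of adjusted values held 15 of 17 possible dimensions, so 2 directions had been removed from it upstream. Whether the normalized counts, which were used for the tests, lack them too was not checked. Raw depth is unknown, so no counting intervals are given. Replicates correlated at r of 0.978 to 0.992 within groups.

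Fold changes and tests were computed with limma 3.58.1 in R 4.3.3 on log2(normalized count + 1), with 1 coefficient per group, all 18 cultures, 12 residual degrees of freedom and a mean variance trend. This scale understates changes of low genes. As the normalized counts probably also lack the 2 removed directions, 12 residual degrees of freedom are probably too many and p-values may be too small. The filter, a mean of at least 1, removed 0 genes. P-values were adjusted by Benjamini-Hochberg over all genes, threshold 0.05, in 11 comparisons. The script was tested on simulated data. As an alternative, the replicate number entered as a block in every comparison. In genotype comparisons it paired same-numbered WT and HET cultures at all 3 times, with 6 residual degrees of freedom. Same-numbered cultures were taken to deviate together where every correlation of deviations from group means was above 0.1. This held for WT and HET at 48 h (r 0.21 to 0.46) and in no other pair of groups with 3 shared numbers; what a number marks is not given in the labels. Genes and lists were chosen with earlier results of these data known. Values of every culture are given for 7 set genes and for up to 3 genes per direction with the largest change among those past the threshold, or the 3 of lowest p where none passed; Acat2, Mvk, Fdps, Lss, Stard4, Nsdhl, Fdft1, Acly and Acss2 were in part added after their values were seen. Up to 3 genes per direction were named from each further list, except some that are not reported here; Npc1, Paqr3, Fads2, Hsd17b12, Soat1 and Mcat at 48 h were named after their values were seen. Alternatives were the block, another scaling, quantile normalization, other pseudocounts and filters, the 2 removed directions as covariates, the compared groups alone and leaving out each culture. Positions are from GENCODE M21 (GRCm38) and promoters from RefSeq GRCm38.p6. Motifs were searched on both strands, as CCAAT, TCACNCCAC, CACNCCAC and CACGTG; the 5 promoters shown were chosen after values were seen.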

Additional observations from a re-analysis of the deposited data

Results flagged for a closer look

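In 4 of the 29 genes every WT culture moved down from the 24 h mean to 48 h and every HET culture moved up. This rule was applied to the 29 genes only, so the share of all genes that meet it is not known. The mean log2 change was -0.248 in WT and 0.196 in HET for Pmvk, -0.212 and 0.303 for Fdft1, -0.234 and 0.498 for Elovl6, and -0.661 and 0.478 for Scd1. The difference between the genotypes in the 24 to 48 h change was then tested, a test chosen after the data had been seen. Limma without the block called 0 of the 29 genes and 0 of all genes, with 10 of the 29 members and 2749 of the 17198 genes at an unadjusted p under 0.05. With the block it called 3 members and 916 of the 17198 genes. Same-numbered WT and HET cultures were not shown to be paired at 24 h (r -0.21 to 0.26), so the blocked values here rest on a pairing not shown. The median difference of the 29 was 0.43 against -0.03 over all genes, and 25 of 29 were positive, as were 8012 of the 17198 genes. The limma adjusted p was 0.18 for Scd1 (0.00397 with the block, 0.363 without HET replicate 3 at 48 h and without the block). For Elovl6 it was 0.231 (0.0668 and 0.436), for Fdft1 0.273 (0.0652 and 0.540) and for Pmvk 0.295 (0.140 and 0.585). HET replicate 3 at 48 h stood nearer to the 24 h cultures than to its partners over all genes. The WT change of Scd1 turned to 0.39 under the block with the removed directions as covariates.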

How the results depend on the processing

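No member passed between genotypes at 12 h, at 24 h or in the 12 to 48 h interaction under any alternative run. At 48 h, where 0 passed, the replicate block gave 13, the block with the removed directions as covariates 12, quantile normalization 2 and a pseudocount of 10 gave 1. Added after seeing the data, the block without HET replicate 3 gave 7 and without WT replicate 2 gave 3. Leaving out 1 culture without the block gave 0 to 10, with 10 without HET replicate 2, 7 without WT replicate 3 and 2 without HET replicate 1. The average over times gave 8 with the block and 7 with the block and the removed directions.
For WT 24 against 12 h (1 fell) the block gave 2, where it called 6.21% of all genes higher and 3.22% lower. Only the groups compared gave 12, quantile normalization 0, the removed directions 5, the block with them 20, and every left-out culture 0. For WT 48 against 24 h (3 fell) left-out cultures gave 0 to 3. For WT 48 against 12 h (16 fell) the block with the removed directions gave 9 and left-out cultures 9 to 17. For HET 24 against 12 h (17 fell) left-out cultures gave 5 to 17. For HET 48 against 24 h (1 rose) the block gave 4 (2 up, 2 down), where it called 9.76% of all genes higher and 7.03% lower. The block with the removed directions gave 4 (1 up, 3 down). Only the groups compared gave 0, the second deposited scaling 0, and left-out cultures 0 to 2. For HET 48 against 12 h (1 fell) the block gave 8 (1 up, 7 down), where it called 21.3% of all genes higher and 9.49% lower. The block with the removed directions gave 16 (1 up, 15 down). Only the groups compared gave 0, the second scaling 6, and left-out cultures 0 to 7. Beyond the shares given here and above, the share of all genes called under each alternative is not given, so those counts lack a background. In the time comparisons same-numbered cultures were not shown to be paired (r between -0.20 and 0.36 for the pairs of groups with 3 shared numbers), so they share only a number there. Under the block plus removed directions, the Scd1 change from 24 to 48 h in WT turned positive, 0.39 (adjusted p = 0.318, from 0.0319). Beyond these, 429 single gene values kept their direction and side of the threshold, 26 passed where they had not and 33 no longer passed. The cause of these differences was not tested. Raw counts were not used here, so DESeq2 and depth-based limits were not run.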

Other observations

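In WT from 12 to 48 h other genes of the further lists also passed. Those that fell included Thrsp, which promotes lipid synthesis, with a log2 change of -1.85, Ch25h, which makes 25-hydroxycholesterol, at -1.90, Lcat, which esterifies cholesterol on lipoproteins, at -1.37, and the elongase Elovl2 at -1.11. Paqr3, which anchors SCAP and SREBP to the Golgi, fell by 1.07 on the log2 scale. On the other side, Cyp46a1, which turns cholesterol into a form that leaves neurons, rose by 0.43 and Ggps1, the geranylgeranyl diphosphate synthase, by 0.47. The limma adjusted p of these 7 lay between 1.24e-04 and 0.0173.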
